A study of Homo sapiens with 6 samples.

Results

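Metallothioneins are small cytosolic proteins that hold zinc, copper and other soft metals in clusters of cysteine thiolates. Their genes lie side by side on the long arm of human chromosome 16, and the zinc-sensing factor MTF1 switches them on through short metal response elements in their promoters. Glucocorticoids and oxidative stress also induce them, and in blood cells they are known as a buffer of free zinc. The genes described here were selected by name, as the rows for MT2A, MT1A, MT1E, MT1F, MT1G, MT1H, MT1M and MT1X, with their levels and ratios in these libraries already known. Of the 8 names 7 are described, among 34114 genes of the table, and MT1A is not analysed here. Because their values in this contrast were known at selection, the levels and ratios of the 7 genes are given as a description, with no test.

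RNA was sequenced from 3 acute myeloid leukemia (AML) cell lines, MOLM-14, NOMO-1 and SKM-1, at 72 h after transfection. In each line 1 library came from cells given a short hairpin RNA (shRNA) against NCAM1 and 1 from cells given a scrambled control shRNA, so the NCAM1 shRNA group and the control shRNA group hold 3 libraries each, with no replicate within a line. The label of the NCAM1 hairpin carries an added letter in SKM-1 that it lacks in MOLM-14 and NOMO-1. Whether the same hairpin was used in all lines was not stated. NCAM1 (CD56) is a cell surface adhesion protein. It stood at 1896, 312 and 101 normalized read counts with NCAM1 shRNA in the lines in that order, against 6004, 1163 and 12537 with control shRNA. The NCAM1 shRNA libraries held 43745763 to 47688779 gene-assigned reads and the control shRNA libraries 41916991 to 45542099. A normalized count is a read count divided by the size factor of its library, so that 1 read is worth close to 1 normalized count. All 14 myeloid marker genes of the label check were found, among them CD33, PTPRC and SPI1 with reads in each library (summed level 46829 to 89188 with NCAM1 shRNA and 51094 to 783539 with control shRNA). The highest sum, in SKM-1 with control shRNA, held 728824 from MPO. Others were low, with CD14 at 3.05 to 27.4 and CD68 at 0.918 to 10.4 normalized counts over the libraries. ANPEP had 4.46 in MOLM-14 with control shRNA. Of 15 markers of epithelial, stromal, lymphoid and erythroid cells 10 were found, with a summed level of 184 to 5302 with NCAM1 shRNA and 156 to 4416 with control shRNA. In both NOMO-1 libraries the T cell gene CD3D made up most of that sum, while HBB and DCN had at most 3 reads in any library. The stromal gene COL1A1 had 30.1 to 95.5 normalized counts with NCAM1 shRNA and 30.1 to 55.9 with control shRNA. The epithelial gene EPCAM had 1203 in SKM-1 with NCAM1 shRNA against 549 with control shRNA. The B cell gene MS4A1 had 1988 in NOMO-1 with NCAM1 shRNA against 144 with control shRNA. DESeq2 called it in a fit over the 3 lines together, while limma and edgeR did not. In bulk RNA, fewer cells that express a gene and less of its RNA per cell cannot be told apart.

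The coding sequences show how alike these genes are, on which the placing of reads depends. In GENCODE 29 (GRCh38) each of the 7 genes encodes 61 codons, 20 of which are cysteine codons, or 32.8%. The coding sequences of MT2A, MT1E, MT1F, MT1G and MT1H follow from start codon to last sense codon, with the in-frame cysteine codons TGC and TGT in capitals. They are the most abundant gene, the pair that differed most in SKM-1, and the pair with line-restricted reads.
MT2A: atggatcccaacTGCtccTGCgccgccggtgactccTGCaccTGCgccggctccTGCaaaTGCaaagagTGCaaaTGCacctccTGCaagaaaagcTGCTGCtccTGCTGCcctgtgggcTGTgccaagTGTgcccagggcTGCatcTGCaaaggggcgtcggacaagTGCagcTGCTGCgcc
MT1E: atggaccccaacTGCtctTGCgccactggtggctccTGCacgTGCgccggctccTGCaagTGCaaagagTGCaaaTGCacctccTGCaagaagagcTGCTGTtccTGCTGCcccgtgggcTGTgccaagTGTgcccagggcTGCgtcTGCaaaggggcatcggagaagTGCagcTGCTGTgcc
MT1F: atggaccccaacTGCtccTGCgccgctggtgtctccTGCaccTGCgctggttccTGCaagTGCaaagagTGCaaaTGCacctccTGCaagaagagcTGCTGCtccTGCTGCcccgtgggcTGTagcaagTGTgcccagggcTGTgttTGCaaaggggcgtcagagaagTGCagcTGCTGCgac
MT1G: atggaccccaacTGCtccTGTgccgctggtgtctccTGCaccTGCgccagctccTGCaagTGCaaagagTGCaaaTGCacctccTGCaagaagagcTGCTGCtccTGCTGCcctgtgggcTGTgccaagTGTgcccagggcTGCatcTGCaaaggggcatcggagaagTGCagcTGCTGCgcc
MT1H: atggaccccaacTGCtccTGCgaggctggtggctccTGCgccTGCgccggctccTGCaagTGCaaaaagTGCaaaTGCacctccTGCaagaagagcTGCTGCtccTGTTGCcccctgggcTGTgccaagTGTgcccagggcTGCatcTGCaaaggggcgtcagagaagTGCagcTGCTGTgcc

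Over the 21 pairs of measured genes, coding identity ran from 88.5% (MT1F and MT1X) to 95.1% (MT2A and MT1G), with a median of 91.8%. Of the windows of 50 bases along the principal transcript, 20.2% for MT1G, 20.4% for MT1H and 15.96% for MT1X occurred letter for letter in another metallothionein gene or pseudogene. The share was 7.05% for MT1M, 5.34% for MT1E, 4.89% for MT2A and 3.59% for MT1F. Reads from such windows can be split between copies or dropped, so every level below is uncertain to that extent, least so for MT2A, MT1E and MT1F.

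Promoters from RefSeq (GRCh38.p14, 250 bases before to 50 after the gene start, plus strand) were matched for MT2A at chr16:56608334-56608633, MT1H at chr16:56669564-56669863 and MT1X at chr16:56682220-56682519. They are shown because metal response elements are the sites through which zinc acts on these genes. Capitals mark the element core, searched as TGCACNC and TGCGCNC on both strands. None of the matches in a promoter overlapped another.
MT2A promoter: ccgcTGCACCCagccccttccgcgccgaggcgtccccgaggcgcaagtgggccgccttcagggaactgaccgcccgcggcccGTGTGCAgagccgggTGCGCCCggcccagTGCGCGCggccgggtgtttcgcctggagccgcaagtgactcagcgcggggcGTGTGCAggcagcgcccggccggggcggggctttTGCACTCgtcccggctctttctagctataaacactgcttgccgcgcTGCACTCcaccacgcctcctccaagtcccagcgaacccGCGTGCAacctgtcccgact
MT1H promoter: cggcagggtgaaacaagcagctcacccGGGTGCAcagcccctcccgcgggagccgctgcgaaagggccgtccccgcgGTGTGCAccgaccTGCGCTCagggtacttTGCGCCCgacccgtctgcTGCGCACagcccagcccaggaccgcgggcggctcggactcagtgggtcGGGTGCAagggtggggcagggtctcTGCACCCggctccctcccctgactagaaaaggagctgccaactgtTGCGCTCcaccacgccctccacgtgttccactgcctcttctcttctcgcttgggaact
MT1X promoter: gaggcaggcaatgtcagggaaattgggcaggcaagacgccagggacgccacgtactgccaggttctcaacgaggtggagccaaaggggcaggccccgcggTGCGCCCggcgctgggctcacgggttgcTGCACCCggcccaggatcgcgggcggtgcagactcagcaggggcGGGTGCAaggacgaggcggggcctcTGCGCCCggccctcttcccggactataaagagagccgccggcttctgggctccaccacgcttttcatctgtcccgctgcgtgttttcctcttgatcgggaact

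The core was found 8 times in the MT2A promoter, 8 times in that of MT1H and 4 times in that of MT1X. Of all 35116 RefSeq promoters of this length, 29.6% held at least 1 match, 0.601% held 4 or more, and 7 promoters (0.0199%) held 8 or more. These matches are letters in a window and were not measured as bound sites. MT1E, MT1F, MT1G and MT1M are named only.

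The 7 genes together had more reads with NCAM1 shRNA in MOLM-14 and NOMO-1 and fewer in SKM-1. Their summed normalized count was 17144 with NCAM1 shRNA against 9415 with control shRNA in MOLM-14, a ratio of 1.82 (exact conditional 95% interval 1.77 to 1.87). It was 13435 against 4765 in NOMO-1, a ratio of 2.82 (2.73 to 2.91), and 527 against 1784 in SKM-1, 3.39-fold lower with NCAM1 shRNA (3.08 to 3.73). These intervals cover counting error only, since a line has 1 library per condition. The lines kept the order MOLM-14, NOMO-1, SKM-1 in both conditions, and the highest line stood 32.5-fold above the lowest with NCAM1 shRNA and 5.28-fold above it with control shRNA. Over the 3 lines the log2 ratio of the sum averaged 0.20 ± 1.73 (SD, n = 3 lines), a mean that is small beside the spread between lines. It was -0.13 without MOLM-14, -0.45 without NOMO-1 and 1.18 without SKM-1.

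**Figure D1:**
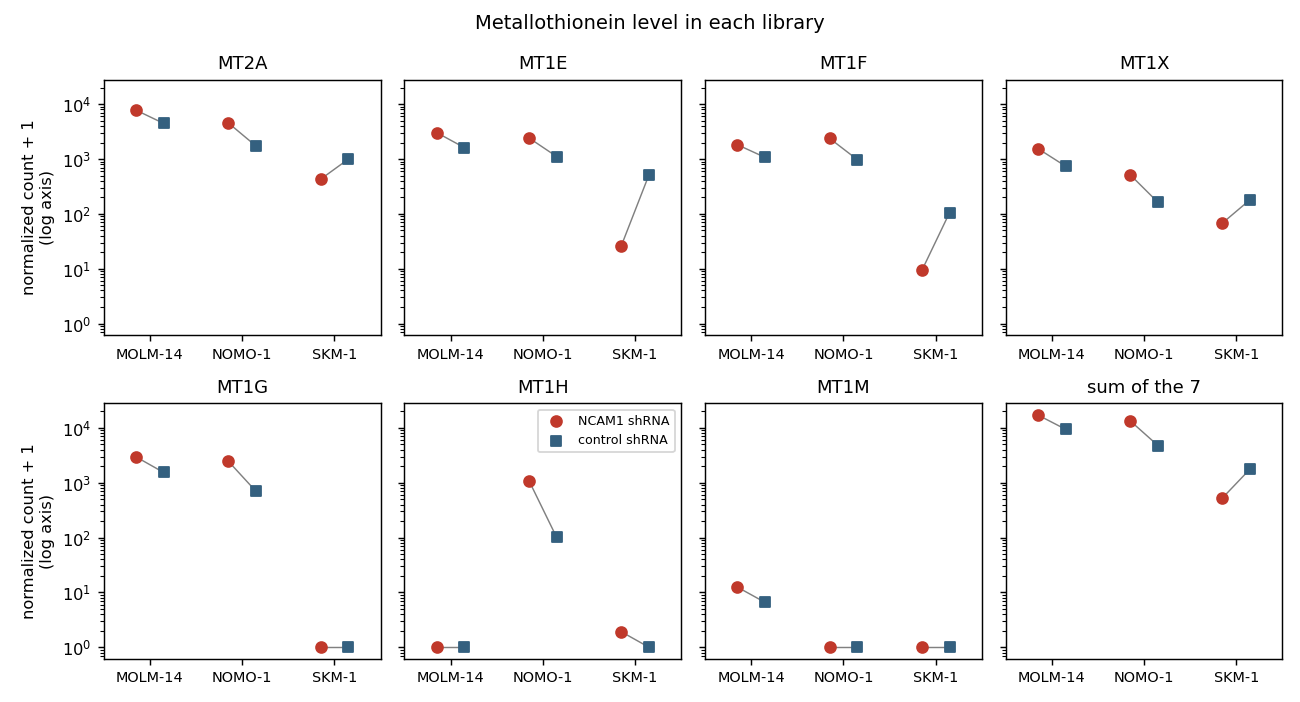
Normalized read count plus 1 (vertical, log axis) of each metallothionein and of their sum in the NCAM1 shRNA library (circle) and the control shRNA library (square) of each cell line (horizontal); a point at 1 stands for 0 reads. The circle lies above the square for the sum in MOLM-14 and NOMO-1 and below it in SKM-1.

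MT2A, the main metallothionein of most human tissues, had 7775, 4556 and 426 normalized counts with NCAM1 shRNA (lines in the order MOLM-14, NOMO-1, SKM-1), against 4456, 1724 and 992 with control shRNA. The NCAM1 shRNA library was the higher one in MOLM-14 and NOMO-1 and the lower one in SKM-1, and the 2 groups overlapped. The ratio was 1.75 in MOLM-14 (95% counting interval 1.68 to 1.81) and 2.64 in NOMO-1 (2.505 to 2.79). In SKM-1 MT2A was 2.33-fold lower with NCAM1 shRNA (2.08 to 2.61). Averaged over lines, the log2 ratio was 0.33 ± 1.37 (SD, n = 3 lines). The mean became 0.092 when MOLM-14 was left out, -0.21 when NOMO-1 was and 1.10 when SKM-1 was.

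MT1X, another widely expressed zinc-binding member, had 1548, 515 and 67.0 normalized counts with NCAM1 shRNA in MOLM-14, NOMO-1 and SKM-1, against 737, 162 and 181 with control shRNA. It repeated the order of directions of MT2A, again with overlapping groups, and with control shRNA SKM-1 stood level with NOMO-1. The ratio was 2.10 in MOLM-14 (1.91 to 2.31) and 3.19 in NOMO-1 (2.68 to 3.80), and MT1X was 2.70-fold lower with NCAM1 shRNA in SKM-1 (2.04 to 3.59). The SKM-1 libraries hold 73 reads with NCAM1 shRNA and 178 with control shRNA, which gives the wider interval.

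MT1E and MT1F, both zinc-inducible isoforms, had few reads in the SKM-1 library with NCAM1 shRNA. MT1E had 3030, 2425 and 24.8 normalized counts with NCAM1 shRNA in MOLM-14, NOMO-1 and SKM-1, against 1611, 1109 and 508 with control shRNA. MT1F had 1823, 2382 and 8.26 with NCAM1 shRNA, against 1071, 975 and 104 with control shRNA. Both genes were higher with NCAM1 shRNA in MOLM-14 and NOMO-1, where the ratio of MT1E was 1.88 (1.765 to 2.0045) and 2.19 (2.04 to 2.34) and that of MT1F 1.70 (1.57 to 1.84) and 2.44 (2.27 to 2.63). In SKM-1 MT1E was 20.5-fold lower (13.9 to 31.4), on 27 reads with NCAM1 shRNA against 500 with control shRNA. There MT1F was 12.5-fold lower (6.35 to 28.2), on 9 reads against 102. Both folds were above those of MT2A and MT1X in the same pair of libraries, which is a description of these 2 libraries.

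**Figure D2:**
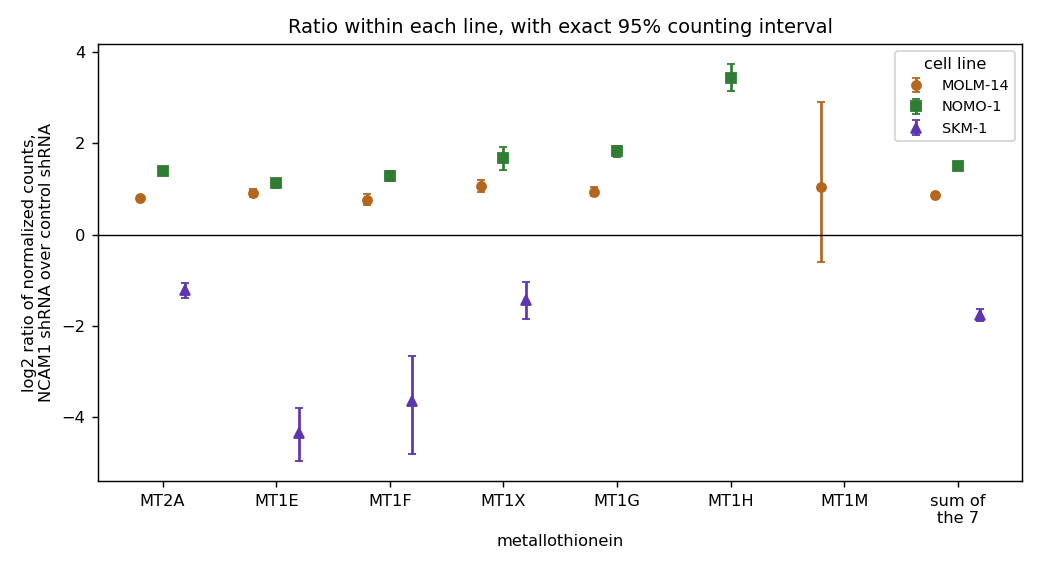
Log2 ratio of normalized counts, NCAM1 shRNA over control shRNA (vertical), for each metallothionein and their sum (horizontal) in each line, with the exact conditional 95% interval as bars; genes with 0 or 1 read in a line are not drawn. MOLM-14 and NOMO-1 lie above 0 apart from the wide interval of MT1M, and SKM-1 lies below 0, furthest for MT1E and MT1F.

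MT1G, MT1H and MT1M had reads mainly in some lines, in both conditions alike. MT1G, a zinc-binding isoform, had 2956 and 2466 normalized counts with NCAM1 shRNA in MOLM-14 and NOMO-1, against 1534 and 696 with control shRNA, a ratio of 1.93 (1.81 to 2.06) and 3.54 (3.26 to 3.85). In SKM-1 it had 0 reads in both libraries, which allows up to 2.75 normalized counts with NCAM1 shRNA and 3.05 with control shRNA, and no fold is given there. MT1H had 1091 normalized counts (1196 reads) with NCAM1 shRNA in NOMO-1 against 100.1 (106 reads) with control shRNA, a ratio of 10.9 (8.93 to 13.4). Elsewhere it had 0 reads in both MOLM-14 libraries, and in SKM-1 1 read with NCAM1 shRNA and 0 with control shRNA. MT1M had 11 reads with NCAM1 shRNA and 5 with control shRNA in MOLM-14, a ratio of 2.06 whose interval (0.66 to 7.56) includes 1, and 0 reads in the other 4 libraries.

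Further metallothionein rows of the table showed related patterns. There were 6 of them. MT1L, a transcribed pseudogene within the cluster, had 0, 20 and 5 reads with NCAM1 shRNA in MOLM-14, NOMO-1 and SKM-1, against 1, 12 and 130 with control shRNA. Most of its reads lay in the SKM-1 control shRNA library, and it was 28.8-fold lower with NCAM1 shRNA there (12.0 to 90.1). MT2P1, a processed pseudogene on another chromosome that shares sequence with MT2A, had 100, 68 and 3 reads with NCAM1 shRNA, against 42, 26 and 13 with control shRNA. That is 0.647% to 1.36% of the MT2A reads with NCAM1 shRNA and 1.05% to 1.43% with control shRNA. The processed pseudogene MT1XP1 had 5.48% to 8.33% of the MT1X reads with NCAM1 shRNA and 7.11% to 9.94% with control shRNA. MT1HL1, a retrogene copy that shares exact windows with MT1H, had 14 reads in the NOMO-1 library with NCAM1 shRNA and 0 in the other 5 libraries. MT1P1 and MT1P3 had at most 2 reads in any library.

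The makeup of the family differed more between SKM-1 libraries than between those of the other lines. MT2A gave 80.8% of the metallothionein reads of SKM-1 with NCAM1 shRNA (exact Clopper-Pearson 95% interval 77.4% to 84.0%, of 574 reads), against 55.6% with control shRNA (53.2% to 57.9%, of 1756 reads). The MT1E share there was 4.70% with NCAM1 shRNA (3.12% to 6.77%) against 28.5% with control shRNA (26.4% to 30.6%). In MOLM-14 the MT2A share was 45.4% with NCAM1 shRNA (44.6% to 46.1%) against 47.3% with control shRNA (46.3% to 48.4%), and in NOMO-1 it was 33.9% (33.1% to 34.7%) against 36.2% (34.8% to 37.5%). In NOMO-1 the MT1H share was 8.12% with NCAM1 shRNA (7.69% to 8.57%) against 2.10% with control shRNA (1.72% to 2.54%). The MT1G share of that line was 18.4% (17.7% to 19.0%) against 14.6% (13.6% to 15.6%). The MT1E share was lower there, at 18.0% (17.4% to 18.7%) against 23.3% (22.1% to 24.5%).

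**Figure D3:**
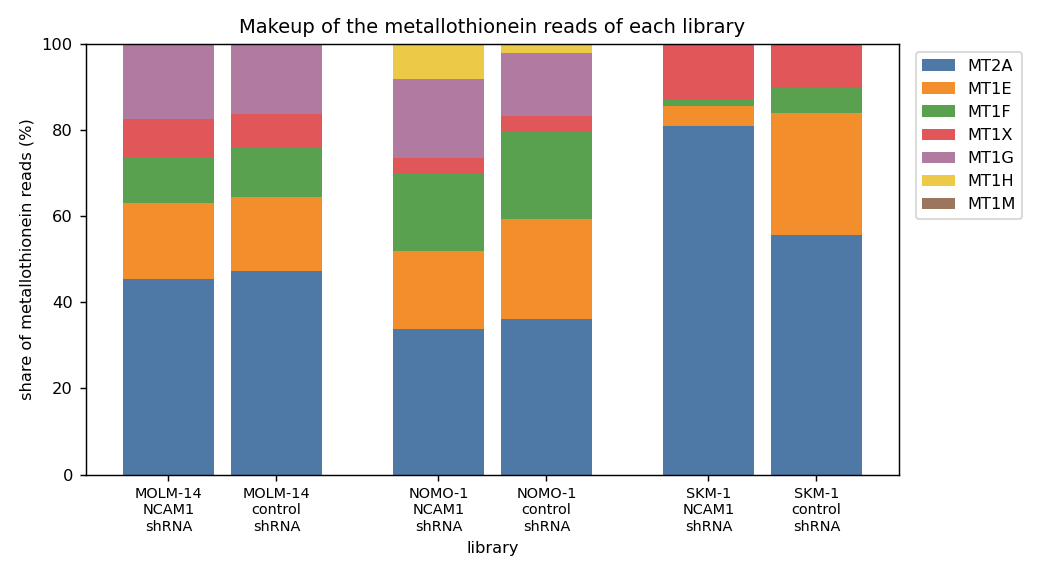
Share of the reads of the 7 metallothioneins (vertical, %) that each gene took in each library (horizontal), the NCAM1 shRNA library left of the control shRNA library of each line. MT2A takes 80.8% in SKM-1 with NCAM1 shRNA, MT1H takes at most 0.174% outside NOMO-1, and MT1G is missing from both SKM-1 libraries.

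Levels per kilobase of principal transcript, a normalized count divided by the GENCODE length, allow genes to be ranked within a library. MT2A had 9892, 5797 and 542 per kilobase with NCAM1 shRNA in MOLM-14, NOMO-1 and SKM-1, against 5669, 2193 and 1262 with control shRNA, and came first in 5 of 6 libraries. The exception was NOMO-1 with NCAM1 shRNA, where MT1G came first at 6074 per kilobase, and MT2A came first there without the length correction. MT1G was second in both MOLM-14 libraries, at 7282 with NCAM1 shRNA and 3780 with control shRNA. In SKM-1 the second place was held by MT1X with NCAM1 shRNA, at 149, and by MT1E with control shRNA, at 722. Transcript lengths of these genes differ mainly in their ends, and which end each library used was not measured.

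The test across genes kept those averaging at least 10 normalized counts, which left 19575 genes and 6 metallothioneins, all but MT1M. Folds in this paragraph are on the log2(normalized count + 1) scale. At least 1.5-fold higher with NCAM1 shRNA were 5 of the 6 in MOLM-14, where 8.04% of all genes tested were, and 6 of 6 in NOMO-1, where 12.1% were. MT1H passed the filter only through its NOMO-1 counts, so its place among the 6 there was helped by that line. It had 0 reads in both MOLM-14 libraries and is the member not higher there. At least 1.5-fold lower were 0 of the 6 in either line, where 9.15% of all genes were lower in MOLM-14 and 16.8% in NOMO-1. At least 1.5-fold lower were 4 of the 6 in SKM-1, where 27.4% of all genes tested were and 25.3% were at least 1.5-fold higher. Of the other two there, MT1G had 0 reads, and MT1H counts as higher through 1 read against 0. All 3 of these differences were met by MT2A, MT1E, MT1F and MT1X, which are among 112 such genes of those tested (0.572%). These counts restate the contrast in which the genes were picked. In limma with the cell line as a block, 0 genes (0%) passed an adjusted p of 0.05 over all genes tested, the metallothioneins included. At an unadjusted p of 0.05 there were 877, with 1.59% of genes higher and 2.89% lower, and 0 metallothioneins in either direction. Other fits placed some under that level, all of them higher with NCAM1 shRNA. As the genes were picked in this contrast, this is no test of them. Under it were MT1G and MT1H in edgeR, with 863 genes in all, and in DESeq2, with 1102. In limma it was MT1H without MOLM-14, with 1032 genes in all. Without SKM-1 MT2A, MT1E, MT1F, MT1G and MT1X were, with 1389 genes in all. That fit leaves out the line in which MT2A, MT1E, MT1F and MT1X were lower. MT1G had 0 reads in SKM-1, and MT1H had nearly all its reads in NOMO-1. On recovered reads, edgeR (quasi-likelihood) called 0 genes as well, and DESeq2 called 43, with 0 metallothioneins among them. Each line stands as 1 replicate. The spread behind a p value is thus that between 3 lines, drawn by each fit towards values pooled over genes.

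The zinc machinery was looked at next, as 25 listed genes of zinc sensing and transport, of which 18 were tested. Adjusted over all genes 0 were called. At an unadjusted p of 0.05 in limma, 2 were higher and 1 lower, beside 1.59% and 2.89% of all genes tested, and the median log2 change was 0.011 against -0.0070 over all genes tested. SLC30A1, the zinc exporter of the plasma membrane and itself a target of MTF1, had 5216, 3914 and 5395 normalized counts with NCAM1 shRNA in MOLM-14, NOMO-1 and SKM-1, against 4251, 2625 and 1620 with control shRNA. It was higher with NCAM1 shRNA in all 3 lines and most so in SKM-1, where the metallothioneins were lower. Over lines its log2 ratio averaged 0.87 ± 0.76 (SD, n = 3 lines), with an adjusted p of 0.779 in limma.

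MTF1 itself, named here after its values were seen, had 1402, 1214 and 4321 normalized counts with NCAM1 shRNA, against 1374, 1860 and 1482 with control shRNA. It was thus near level in MOLM-14, lower in NOMO-1 and higher in SKM-1. SLC30A4, a zinc exporter of vesicles, had 3.13, 104 and 64.3 normalized counts with NCAM1 shRNA, against 1.115, 40.6 and 2.03 with control shRNA. It was higher in each line, on few reads in both MOLM-14 libraries and in SKM-1 with control shRNA, and averaged a log2 ratio of 2.24 ± 1.90 (SD, n = 3 lines). The importer SLC39A8 (ZIP8) was at -0.75 ± 0.60 and SLC39A11 at -0.50 ± 0.41, each with the same adjusted p of 0.779 in limma. At least 1.5-fold differences in SKM-1 were seen for 9 of the 18 genes, 4 higher and 5 lower, where 25.3% and 27.4% of all genes tested were. No tested gene of this list met the 3 differences of MT2A, MT1E, MT1F and MT1X together. Of all genes tested 0.572% met them, so a count of 0 among 18 says little.

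Copper genes gave 1 higher and 1 lower at an unadjusted p of 0.05 among 15 tested, and 0 were called after adjustment in limma. Over all genes tested 1.59% were higher and 2.89% lower at that level, which holds for the iron genes too. ATP7B, a copper-exporting ATPase, had 19.8, 419 and 423 normalized counts with NCAM1 shRNA in the lines as ordered above, against 46.8, 728 and 670 with control shRNA. It was lower in each line, and its log2 ratio averaged -0.89 ± 0.28 (SD, n = 3 lines). SOD1, the copper and zinc superoxide dismutase, averaged 0.59 ± 0.47. SLC31A1, the copper importer, was at -0.40 ± 0.28, and the metalloreductase STEAP4 at 2.94 ± 5.05, with 8.61 in SKM-1 alone. Of 13 iron genes tested 0 were higher and 2 lower at that level. They were the transferrin receptor TFRC, at -1.16 ± 0.71, and the ferrireductase CYBRD1, at -0.91 ± 0.54. TFRC had 13960, 19039 and 9659 normalized counts with NCAM1 shRNA, against 21569, 35336 and 37727 with control shRNA, lower in each line. The ferritin light chain FTL was at 0.66 ± 0.88 and the mitochondrial iron importer SLC25A37 at -0.47 ± 0.52. Each of these genes had an adjusted p of 0.779 in limma.

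Targets of NRF2, the factor that answers oxidative stress, were listed together with glutathione genes. Among 23 tested genes 3 were higher and 0 lower at an unadjusted p of 0.05 in limma, beside 1.59% and 2.89% of all genes tested, 0 were called after adjustment, and the median log2 change was 0.48 against -0.0070 over all genes tested. NQO1, a quinone reductase, had 498, 877 and 2243 normalized counts with NCAM1 shRNA in MOLM-14, NOMO-1 and SKM-1, against 319, 219 and 441 with control shRNA. It was higher in each line, its log2 ratio averaging 1.66 ± 0.90 (SD, n = 3 lines), with an adjusted p of 0.779. PRDX1, a peroxiredoxin, was at 0.75 ± 0.54, malic enzyme ME1 at 2.42 ± 2.21 and the glutathione conjugate exporter ABCC1 at -0.51 ± 0.32.

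The list was far from even between lines, with median log2 ratios of 1.20 for SKM-1, 0.32 for NOMO-1 and 0.071 for MOLM-14, against -0.012 for all genes tested in SKM-1. Genes higher at an unadjusted p of 0.05 in limma numbered 4 without MOLM-14, 1 without NOMO-1 and 3 without SKM-1, and without SKM-1 the median was 0.20. Of all 19575 genes tested, those under that level in either direction numbered 1032, 223 and 1389 in these fits, in the same order. The list counts therefore moved along with the counts over all genes. In SKM-1 13 of the 23 were at least 1.5-fold higher and 2 at least 1.5-fold lower, where 25.3% and 27.4% of all genes tested were. HMOX1, which breaks down haem, had 1308 normalized counts in SKM-1 with NCAM1 shRNA against 12.2 with control shRNA. In MOLM-14 it had 50.1 against 40.1 and in NOMO-1 72.1 against 51.0. HMOX1 and the ferritin heavy chain FTH1, which had 7880 against 1472 in SKM-1, were named after their values were seen. Both stood higher in the SKM-1 library in which MT1E and MT1F were lowest.

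**Figure D4:**
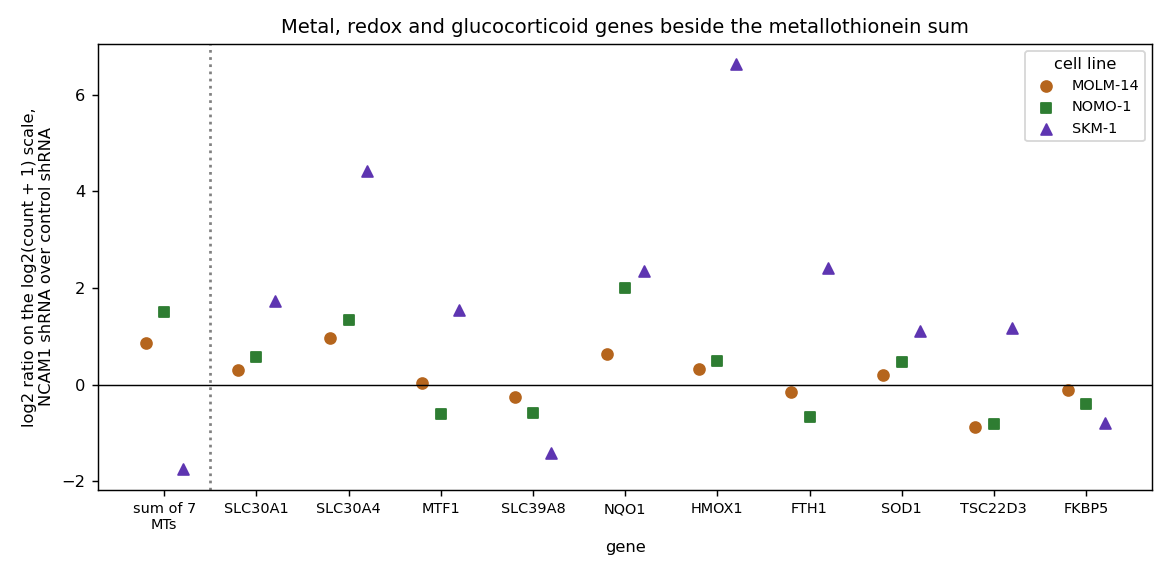
Log2 ratio on the log2(normalized count + 1) scale, NCAM1 shRNA over control shRNA (vertical), of the summed metallothioneins and of 10 genes of zinc handling, redox defence, iron storage, copper binding and glucocorticoid response (horizontal), 1 point per line, the genes shown having been picked with their values in view. In SKM-1 the metallothionein sum is at -1.76 while SLC30A1 is at 1.74 and HMOX1 at 6.63. SLC39A8, at -1.41, and FKBP5, at -0.79, lie below 0 there like the sum, and the remaining genes shown lie above 0.

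Of 14 tested genes of the glucocorticoid receptor and its targets, 0 were higher and 1 lower at an unadjusted p of 0.05 in limma, beside 1.59% and 2.89% of all genes tested, with 0 called after adjustment. The lower gene was the clock gene PER1, at -1.18 ± 0.83 (SD, n = 3 lines). FKBP5, a chaperone of steroid receptors, was at -0.44 ± 0.34, DDIT4 at -1.02 ± 1.32 and CEBPD at -0.39 ± 0.54, each with an adjusted p of 0.779. TSC22D3 (GILZ), a classical glucocorticoid target named after its values were seen, had 3533, 1901 and 5700 normalized counts with NCAM1 shRNA in MOLM-14, NOMO-1 and SKM-1, against 6540, 3368 and 2522 with control shRNA. Its direction was thus opposite to that of MT2A in each line. The list as a whole was split in SKM-1, with 8 of the 14 at least 1.5-fold higher and 4 lower. There 25.3% and 27.4% of all genes tested were, and the median log2 ratio of the list was 0.67. A link of these genes to the metallothionein values was not tested.

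Genes on either side of the cluster on chromosome 16 were listed to set the neighbourhood beside it. Of 14 tested neighbours 0 were higher and 0 lower at an unadjusted p of 0.05 in limma, and 0 passed adjustment. Over all genes tested 1.59% were higher and 2.89% lower at that level, so a count of 0 among 14 says little. Their median log2 change was 0.22, against -0.0070 over all genes tested. ARL2BP was at 0.51 ± 0.31 (SD, n = 3 lines), CPNE2 at -0.45 ± 0.42, OGFOD1 at 0.32 ± 0.31 and HERPUD1, an endoplasmic reticulum stress gene, at 0.59 ± 0.92. The nearest other protein-coding genes on either side in the RefSeq order are BBS2, which encodes a cilium protein, and NUP93, a nuclear pore protein, both named after their values were seen. In SKM-1 BBS2 had 1032 normalized counts with NCAM1 shRNA against 1752 with control shRNA, and NUP93 had 4113 against 5935. The 14 tested neighbours did not share this direction there. At least 1.5-fold higher were 7 and lower 1, where 25.3% and 27.4% of all genes tested were, with a median log2 ratio of 0.49. In NOMO-1 BBS2 and NUP93 had 1320 against 1590 and 4506 against 3969, and in MOLM-14 984 against 834 and 4223 against 3952.

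Of the 12 myeloid markers tested, 4 were at least 1.5-fold higher and 4 at least 1.5-fold lower in SKM-1 with NCAM1 shRNA, where 25.3% and 27.4% of all genes tested were, and their median log2 ratio was -0.15. MPO and ITGAM stood furthest from 0 there and were named for that, with their values in view. CSF3R, the receptor of a granulocyte growth factor, had 14295 normalized counts in SKM-1 with NCAM1 shRNA against 14824 with control shRNA. MPO, the myeloperoxidase of primary granules, had 6166 normalized counts in SKM-1 with NCAM1 shRNA against 728824 with control shRNA, and ITGAM (CD11b) had 20862 against 1757. In MOLM-14 MPO had 3922 against 1398 and ITGAM 1144 against 651, and in NOMO-1 MPO had 15869 against 53986 and ITGAM 7007 against 10102. Over 3 lines, 0 of the 12 were higher and 1 lower at an unadjusted p of 0.05 in limma, beside 1.59% and 2.89% of all genes tested. The lower one was FCGR1A (CD64) at -0.55 ± 0.18. The part of these differences in the metallothionein values was not tested.

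The genes most like the metallothionein sum were sought by Pearson r of log2 levels over the 6 libraries, among 10373 genes with a mean of 50 or more and a range of at least 1 on the log2 scale. The first was HOXA5, a homeobox factor of blood progenitors, at r = 0.995, with 995, 752 and 69.8 normalized counts with NCAM1 shRNA in MOLM-14, NOMO-1 and SKM-1, against 744, 410 and 154 with control shRNA. RPL37P23, a ribosomal protein pseudogene, the DNA repair enzyme ALKBH3, the mitochondrial ribosomal protein MRPL50, the RNase ELAC2 and the spliceosomal protein SNRPF followed at 0.993, 0.993, 0.993, 0.991 and 0.9904. These points are 3 pairs of libraries that share a line, so they are not independent of one another. Within the family, r with the sum of the other members over the same 6 libraries was 0.907 to 0.964 for MT2A, MT1E, MT1F, MT1G and MT1X. It was 0.60 for MT1M and 0.29 for MT1H, whose reads were nearly all in 1 line.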

How the data were processed

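In the table used here each deposited signal value is a gene's read count over the size factor of its library, as the file headers and the values show. The deposited log2 values are the authors' transformation of those counts. Of this transformation the name was not given in the sources used here, nor were the annotation and the strand setting of the counting. The submitters' processing notes name hg19, STAR, DESeq2 1.12.4, HTSeq 0.6.1p1 and bcl2fastq 1.8.4. Reads of a gene and of one overlapping it or antisense to it may be mixed.

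Dividing each column by its smallest step gave whole reads for 100% of values (tolerance 0.001), which gave the depth of each library. Ratios within a line carry an exact conditional 95% interval (scipy 1.17.1), and a count of 0 a floor of 3 reads in that library. Both cover counting error only. The members and lists were chosen with earlier results of these data known.

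Genes with a mean of 10 or more were fitted with limma 3.58.1 (R 4.3.3; two-sided, moderated with a trend) on log2(normalized count + 1) with the line as a block, Benjamini-Hochberg adjusted. This scale understates changes of low genes. Libraries were paired by cell line: deviations from group means correlated at 0.71 to 0.86 between the 2 libraries of a line. Also tried were leaving out each line or the block, scaling by total count or by quantiles, pseudocounts of 0.5 and 8, a filter of 50 or none, the authors' log2 values, and edgeR 4.0.16 and DESeq2 1.42.0 on recovered reads. Named genes are the metallothioneins, up to 4 per list by p, and the 6 most alike. MTF1, HMOX1, FTH1, TSC22D3, BBS2, NUP93 and the single marker genes other than FCGR1A were added after their values were seen. Transcripts are from GENCODE 29 (GRCh38), another build, so lengths there stand in for the authors' annotation.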

Additional observations from a re-analysis of the deposited data

Results flagged for a closer look

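For 4 metallothioneins the ratio of NCAM1 shRNA over control shRNA lay above 1 in MOLM-14 and NOMO-1 and below 1 in SKM-1, with counting intervals that exclude 1 in each line. With 1 library per line and condition, the difference between lines was not tested. On the log2(normalized count + 1) scale MT2A differed by 2.02 between MOLM-14 and SKM-1 and by 2.62 between NOMO-1 and SKM-1. MT1E differed by 5.21 and 5.43, MT1F by 4.27 and 4.79, and MT1X by 2.49 and 3.08, in the same order.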

How the results depend on the processing

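The number of genes called in limma was 0 under every alternative run in limma and in edgeR, and 43 in DESeq2 on recovered reads. The genes at an unadjusted p of 0.05, 877 in the reported fit, numbered 1405 with no filter and 141 with no replicate block. Leaving out NOMO-1 gave 223, MOLM-14 1032 and SKM-1 1389. The mean log2 change of the metallothionein sum was 0.20 to 0.26 under the other pseudocounts and scalings, and 0.20 without the block. Leaving out a line turned its sign or size: the mean became -0.13 (MOLM-14 left out), -0.45 (NOMO-1 left out) or 1.18 (SKM-1 left out). Chosen after seeing the data, adding the 6 further metallothionein rows gave 0.17, and leaving MT2A out of the sum gave -0.17, with -2.96 in SKM-1. Within lines, 11 of 64 alternative values fell outside the counting interval of the reported ratio, and none changed direction. All 11 came from the authors' transformed values and lay nearer to 0 than the reported ones. MT1H in NOMO-1, not among the 11, lay further from 0 with the transformed values, at 3.62 against 3.43. With those values MT1E in SKM-1 was at -3.45 and MT1F at -2.46, against -4.30 and -3.50. The medians of the other gene lists stayed within the spread between lines in 104 of 104 alternatives, while 40 of 208 counts at an unadjusted p moved by over 1.5 times. Depth limits MT1M, MT1H outside NOMO-1 and MT1G in SKM-1, where reads were 0 or few.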
